A study of Mus musculus with 5 samples.

Results

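Alveolar type II cells were described in 4 libraries of single cells from the mouse lung. They were chosen by a rule on measured counts: barcodes with more than 700 and fewer than 8000 genes detected and under 5% of counts from mitochondrial features, in which Sftpc made up 2% or more of the counts, 2 or more of Slc34a2, Lamp3, Abca3, Etv5, Sfta2 and Lpcat1 had a count, and Cdh5, Cd79a and Chil3 had 0. The rule took 1575 of the 12707 cells that passed the limits on genes and mitochondrial counts in these libraries. In the whole series, 13200 of 18236 barcodes passed those limits. Newborn C57BL/6J mice were kept in room air or in hyperoxia, 95% O2, for 3 days and then stayed in room air until postnatal day 7 (pnd7) or pnd60. Unsorted lung cells of each exposure and age made up 1 library, so that the groups were air pnd7, hyperoxia pnd7, air pnd60 and hyperoxia pnd60. The labels name no transgene or deletion in these groups, and the methods state that suspensions of several mouse lungs were pooled for the sorted library described next, following an earlier report, without a number given directly for the 4 unsorted libraries. This further library held hyperoxia pnd7 cells that had been sorted on C12FDG, a substrate that becomes fluorescent in cells with β-galactosidase activity, and it was not used in the comparisons. Xist alone was counted in 273, 108, 131 and 200 members of air pnd7, hyperoxia pnd7, air pnd60 and hyperoxia pnd60, and Y-linked genes alone in 91, 80, 147 and 150, so each library held cells of both sexes. With 1 library per group there is no test across mice, and intervals below are 95% intervals that cover counting error only.

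Type II cells are the cuboidal epithelial cells of the alveolus. They make surfactant, the film of phospholipid and protein that keeps alveoli from collapsing, pack it into lamellar bodies and release it into the airspace, and they also secrete proteins of innate defence and move salt and water out of the airspace. They divide and give rise to the flat type I cells through which gas is exchanged, and for both reasons they are studied in the lung of the newborn exposed to high oxygen.

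The members made up 22.0% of the filtered cells in air pnd7 (507 of 2308, from 20.3% to 23.7%, exact Clopper-Pearson interval) and 19.9% in hyperoxia pnd7 (248 of 1246, from 17.7% to 22.2%). At pnd60 the share was 8.57% in air (377 of 4397) and 9.31% in hyperoxia (443 of 4756). These shares follow the cells that were recovered and called in each library, and at pnd60 lymphocytes alone were 1721 and 1851 of the filtered cells. The members held 4020535 counts of unique molecular identifiers in air pnd7, 3662488 in hyperoxia pnd7, 2455615 in air pnd60 and 2704924 in hyperoxia pnd60. No barcode was shared between members of different libraries, while whole libraries shared 5 to 7 barcodes per unsorted pair.

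Depth differed among the members and between the libraries. The median was 3085 counts per member in air pnd7, 15616.5 in hyperoxia pnd7, 6445 in air pnd60 and 6365 in hyperoxia pnd60. In air pnd7, 326 of 507 members had under 8000 counts. These 326 took 20.4% of the members' counts, had a median Sftpc share of 5.93%, held all 6 of the other genes of the rule in 16.6% of cells and had 11.7% of their counts from hemoglobin genes. The 181 air pnd7 members with 8000 or more counts had a median Sftpc share of 21.0%, all 6 genes in 98.9% of cells and 0.935% of counts from hemoglobin genes. In hyperoxia pnd7 the 102 members under 8000 counts had a median Sftpc share of 15.9% and 0.499% of counts from hemoglobin genes, and the 146 deeper members had 20.9% and 1.33%. Of these 4 classes, the shallow air pnd7 members thus had the lowest Sftpc share and the highest share of red blood cell RNA. They also had 7899 CPM of the club cell gene Scgb1a1 and 4055 CPM of the surfactant gene Sftpa1, against 21.9 and 11285 CPM in the deeper air pnd7 members, where CPM is a gene's counts scaled to a total of 1000000 counts over the cells named. Whether they are type II cells or other cells with type II RNA was not tested. The pnd7 values below are therefore given for all members and, where they differ, also for the deeper members of 8000 or more counts, a limit set after the data were seen.

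**Figure D1:**
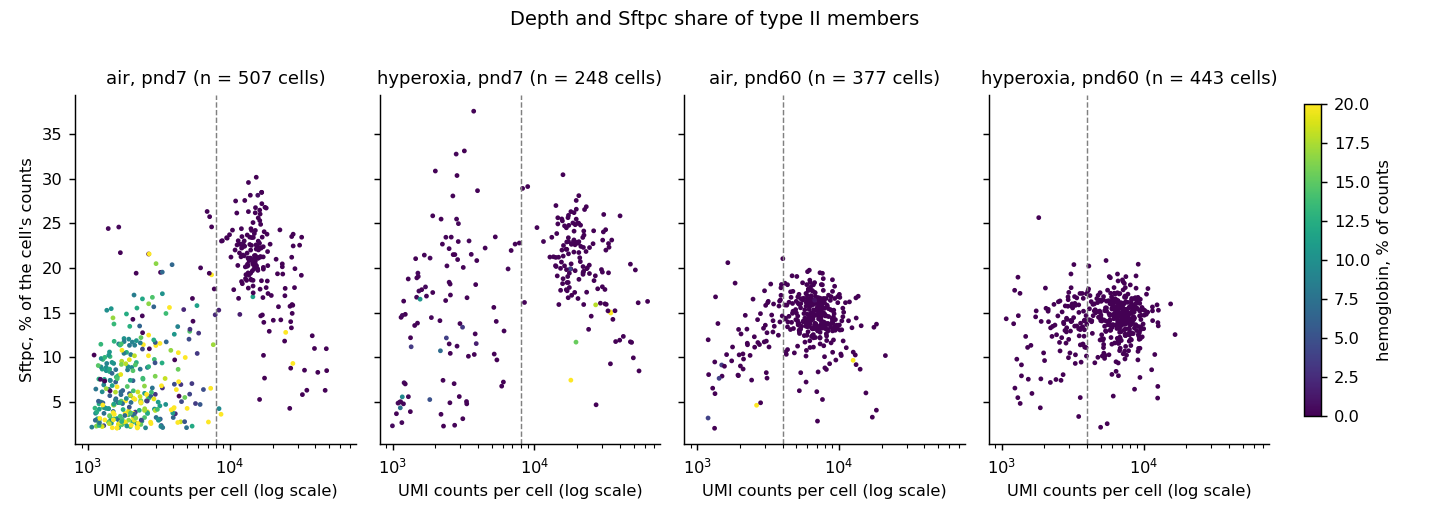
Each point is 1 member, with its counts on the horizontal axis (log scale) and the share of its counts from Sftpc on the vertical axis, in 1 panel per library. Colour gives the share of counts from hemoglobin genes, the dashed line marks 8000 counts at pnd7 and 4000 at pnd60, and air pnd7 alone holds a dense group of shallow members near 2 to 10% Sftpc with high hemoglobin shares.

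The label was checked against type II genes that the rule did not use and against markers of other cells. Sftpa1, which encodes surfactant protein A, stood at 9808 CPM in air pnd7, 13123 in hyperoxia pnd7, 18564 in air pnd60 and 17864 in hyperoxia pnd60. The other filtered cells had 450.4, 257, 894 and 823 CPM of Sftpa1, so the members of each library were above them. Sftpc itself, chosen by the rule, was 166593 CPM in air pnd7, 192807 in hyperoxia pnd7, 139971 in air pnd60 and 141160.0 in hyperoxia pnd60, and the median lymphocyte had 0.0157% and 0.0177% of its counts from it at pnd7 and 0 at pnd60. The lowest Sftpc share inside the limit was 2.06% in air pnd7, 2.27% in hyperoxia pnd7, 2.03% in air pnd60 and 2.15% in hyperoxia pnd60. Just outside it, among cells that met the rest of the rule, the highest shares were 2.00%, 1.76%, 1.52% and 1.91%. In air pnd7, 56 members lay between 2 and 3% and 77 excluded cells between 1 and 2%, against at most 4 members and 3 excluded cells in any of the other libraries.

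Markers of other cells were not equal between libraries, and the erythroid and club cell genes reached high levels in some. In the order air pnd7, hyperoxia pnd7, air pnd60 and hyperoxia pnd60, the 7 lymphocyte markers summed to 51.0, 52.2, 50.9 and 50.3 CPM in the members and the 6 endothelial markers to 104, 51.9, 74.1 and 78.4 CPM. The 9 macrophage markers summed to 159, 49.4, 55.4 and 51.4 CPM, with C1qa and C1qb at 0 in hyperoxia pnd7. The 7 mesenchymal markers summed to 1087, 273, 488 and 423 CPM, led by Acta2 in air pnd7 (239 CPM), and the 5 club cell markers to 1729, 36.6, 1565 and 591 CPM, led by Scgb1a1 in every library. The 5 erythroid genes summed to 31458, 12713, 1562 and 30.7 CPM, led by Hbb-bs. Scrublet, a caller of doublets, marked 0 of 2308 cells in air pnd7 and 4 of 1246 in hyperoxia pnd7. At pnd60 it marked 17 of 377 members in air and 14 of 443 in hyperoxia. Whether it worked at pnd7, where it marked so few cells, was not tested. The part of free RNA in the results below was not tested, nor that of doublets at pnd7. At pnd60 an alternative given below left out the members marked by Scrublet.

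At pnd7, hyperoxia and air members differed in few genes. Retnla and genes of the cell cycle were higher in hyperoxia, genes of mesenchymal cells were lower, and the surfactant, lipid and fluid transport genes each lay within 2-fold. Genes of club and red blood cells were lower over all members, but in deeper members the club cell median was -0.39 with 0 genes past 2-fold and the erythroid median turned to 0.53. Of 7721 genes with 100 or more counts in both libraries together, 92.0% lay within 1.5-fold, 69 were 2-fold or more higher in hyperoxia (0.894%) and 130 were 2-fold or more lower (1.68%), with a median log2 ratio of -0.03. Among deeper members, 62 of 7062 genes with 100 or more counts there were higher and 34 lower. Of the 69 genes, 61 had 100 or more counts in the deeper members too and 53 of these were 2-fold higher there, and of the 130 genes, 52 had them and 28 were 2-fold lower.

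The highest ratio at pnd7 was that of Retnla, which encodes resistin-like molecule alpha, a secreted protein known from allergic and type 2 inflammation. Retnla was at 67.4 CPM in air pnd7, 1250.0 in hyperoxia pnd7, 24.0 in air pnd60 and 73.6 in hyperoxia pnd60, from 271, 4578, 59 and 199 counts. By CPM over the summed members, hyperoxia pnd7 thus stood far above the other libraries, and within each age hyperoxia was above air. The log2 ratio was 4.21 (from 4.04 to 4.40) at pnd7 and 1.61 (from 1.19 to 2.06) at pnd60. In the deeper members it was 4.38 at pnd7 and 1.55 at pnd60, while in the other filtered cells of the same libraries it was 1.36 and -0.29. Retnla was the only gene 2-fold or more higher in hyperoxia at both ages, of 6348 genes with enough counts in both comparisons, and 8 genes were lower at both (Plxdc2, Ccn2, Scgb1a1, Scgb3a2, Hba-a1, Hba-a2, Hbb-bs and Hbb-bt). At pnd7, in deeper members, the 4 hemoglobin genes turned to between 0.13 and 0.62 and Scgb1a1 was -0.28. Some of the genes rest on few cells at pnd60, where 1 air member held 2208 of 3365 counts of Scgb1a1 and 1 air member 68 of 88 counts of Scgb3a2. Without the member highest in the gene in each library, the pnd60 log2 ratio was -0.18 for Scgb1a1, -0.0055 for Scgb3a2, -1.10 for Plxdc2, -1.17 for Ccn2 and 1.16 for Retnla. Plxdc2 also turned to 0.035 without Scrublet doublets and to 1.36 in cells with Xist alone, and Ccn2 was -0.85 at pnd60 without Scrublet doublets.

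Retnla was uneven among the members. In hyperoxia pnd7, 25 of 248 members held 94.3% of its counts, and the highest member had 44915 CPM. To compare shares at equal depth, each cell was thinned to 2000 counts, which left out 158 members of air pnd7, 38 of hyperoxia pnd7, 22 of air pnd60 and 24 of hyperoxia pnd60. At that depth 8.88% of air pnd7 members and 23.3% of hyperoxia pnd7 members had a Retnla count, against 0 of 278 and 0 of 138 lymphocytes, which allow shares of up to 3 counts of the total, 1.08% and 2.17%. Without thinning the shares of members were 15.8% and 47.2%. At pnd60 the thinned shares were 2.82% in air and 3.34% in hyperoxia, whose intervals overlap, and lymphocytes had 0.485% and 0.124%. Without thinning the pnd60 shares of members were 8.22% in air and 6.77% in hyperoxia. In deeper pnd60 members thinned to 4000 counts they were 6.82% and 4.52%, so the share with a count was not steadily higher in hyperoxia at pnd60. All Retnla counts of hyperoxia pnd60 lay in 30 of 443 members, the highest at 8053 CPM. Among members with Xist and no Y-linked count the log2 ratio was 4.37 (from 4.14 to 4.61) at pnd7 and 0.29 (from -0.42 to 1.03) at pnd60, and among those with a Y-linked count and no Xist it was 4.23 (from 3.88 to 4.61) and 2.31 (from 1.73 to 2.94). The pnd7 difference was thus present in cells of both sexes, while at pnd60 it exceeded counting error only in cells with Y-linked counts. The difference between the classes was not tested. Without members that had a count of Ptprc, Pecam1, Col1a2 or Scgb1a1, the pnd60 log2 ratio was 0.57, under 2-fold.

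The promoter window of Retnla is shown because no other gene was 2-fold or more higher in summed counts at both ages. It spans 250 bases before to 50 after the RefSeq start (GRCm38.p6, chr16:48842359-48842658 on the plus strand). Capitals mark the letters TTCNNNNGAA, a pattern that STAT factors are known to bind, searched on both strands.
Retnla: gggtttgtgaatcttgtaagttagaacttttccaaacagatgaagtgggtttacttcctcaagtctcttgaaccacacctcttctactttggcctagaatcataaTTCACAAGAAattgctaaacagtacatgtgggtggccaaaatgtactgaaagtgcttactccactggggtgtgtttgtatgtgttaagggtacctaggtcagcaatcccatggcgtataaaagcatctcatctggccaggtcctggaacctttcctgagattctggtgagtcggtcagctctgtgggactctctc
This pattern occurred once in the window, and 6.95% of 32851 mouse promoter windows of the same length hold it. The match is a description of the sequence and binding was not measured.

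Genes of the cell cycle were higher in hyperoxia at pnd7. Of the 17 genes in the list, 8 were 2-fold or more higher and 0 lower, beside 0.894% of all genes, and the list's median log2 ratio was 0.92 against -0.03 for all genes. The same 8 reached 2-fold in the deeper members, where the median was 0.82. They were Mki67, Top2a, Cdk1, Ccna2, Ccnb1, Ccnb2, Birc5 and Mcm5. Mki67, the marker of proliferating cells, was at 74.6 CPM in air pnd7, 181 in hyperoxia pnd7, 0.407 in air pnd60 and 0.370 in hyperoxia pnd60. Top2a, a topoisomerase that untangles chromosomes, was at 109.7 CPM in air pnd7, 229 in hyperoxia pnd7, 0.407 in air pnd60 and 1.85 in hyperoxia pnd60. Both were highest in hyperoxia pnd7 and close to 0 at pnd60. For Cdk1, the kinase that drives entry into mitosis, the levels were 46.5 and 103 CPM at pnd7, 0 counts in air pnd60 and 0.739 CPM in hyperoxia pnd60. Of the 2 B-type cyclins, Ccnb1 was at 12.9 and 35.5 CPM at pnd7 and had 0 counts in either pnd60 library, where 3 counts would be 1.22 CPM in air and 1.11 CPM in hyperoxia. The log2 ratios of hyperoxia to air at pnd7 were 1.28 (from 1.08 to 1.48) for Mki67, 1.06 (from 0.90 to 1.23) for Top2a and 1.15 (from 0.89 to 1.41) for Cdk1. In the other filtered cells they were 0.02, 0.30 and 0.32.

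The share of members with a count of a cycling gene was also higher in hyperoxia pnd7. After thinning to 2000 counts, 16.0% of air pnd7 members (56 of 349, from 12.4% to 20.3%) and 26.2% of hyperoxia pnd7 members (55 of 210, from 20.4% to 32.7%) had a count of Mki67 or Top2a, against 16.2% and 15.2% of lymphocytes, a cell type that also divides in the young lung. Without thinning the shares were 24.3% and 41.5% of members. In deeper members thinned to 8000 counts they were 17.1% (from 11.9% to 23.4%) and 28.8% (from 21.6% to 36.8%), whose intervals overlap. At pnd60 the thinned shares were 0 of 355, which by the same limit of 3 counts allows a share of up to 0.845%, in air and 3 of 419 in hyperoxia. The pnd7 difference was larger in cells with Xist alone, at a log2 ratio of 2.02 (from 1.71 to 2.34) for Mki67, than in cells with Y-linked counts alone, at 0.58 (from 0.27 to 0.90). How much of that gap lies between mice cannot be told apart from sex with 1 library per group. Depth also differed between these classes in air pnd7, and its part was not tested.

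The windows of Cdk1 and Top2a are shown as examples of genes that were high together at pnd7. Capitals mark the cell cycle homology region TTTGAA and the CCAAT box on either strand (ATTGG on the other strand), with coordinates of GRCm38.p6 at chr10:69352863-69353162 on the minus strand for Cdk1 and chr11:99024140-99024439 on the minus strand for Top2a.
Cdk1: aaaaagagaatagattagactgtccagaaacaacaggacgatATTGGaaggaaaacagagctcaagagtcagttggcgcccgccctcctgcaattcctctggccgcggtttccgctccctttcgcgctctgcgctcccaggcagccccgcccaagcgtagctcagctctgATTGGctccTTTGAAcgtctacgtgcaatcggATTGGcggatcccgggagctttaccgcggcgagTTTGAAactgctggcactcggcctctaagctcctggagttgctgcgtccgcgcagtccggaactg
Top2a: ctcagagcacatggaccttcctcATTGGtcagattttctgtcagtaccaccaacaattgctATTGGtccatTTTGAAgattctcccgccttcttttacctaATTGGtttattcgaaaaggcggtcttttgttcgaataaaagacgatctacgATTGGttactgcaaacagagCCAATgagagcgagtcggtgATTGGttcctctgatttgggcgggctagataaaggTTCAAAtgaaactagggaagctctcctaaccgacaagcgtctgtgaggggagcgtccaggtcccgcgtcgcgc
Of the 17 genes of the list, 13 had a RefSeq window in the table used. TTTGAA occurred in 6 of these 13 windows (46.2%) and in 17.9% of all 32851 windows. CCAAT occurred in 11 of 13 (84.6%) and in 37.4% of all. Retnla did not go one way with these genes: in the deeper hyperoxia pnd7 members it was at 382 CPM in those with a count of Mki67 or Top2a and 2065 CPM in those without, and in the deeper air pnd7 members at 131 and 34.2 CPM.

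**Figure D2:**
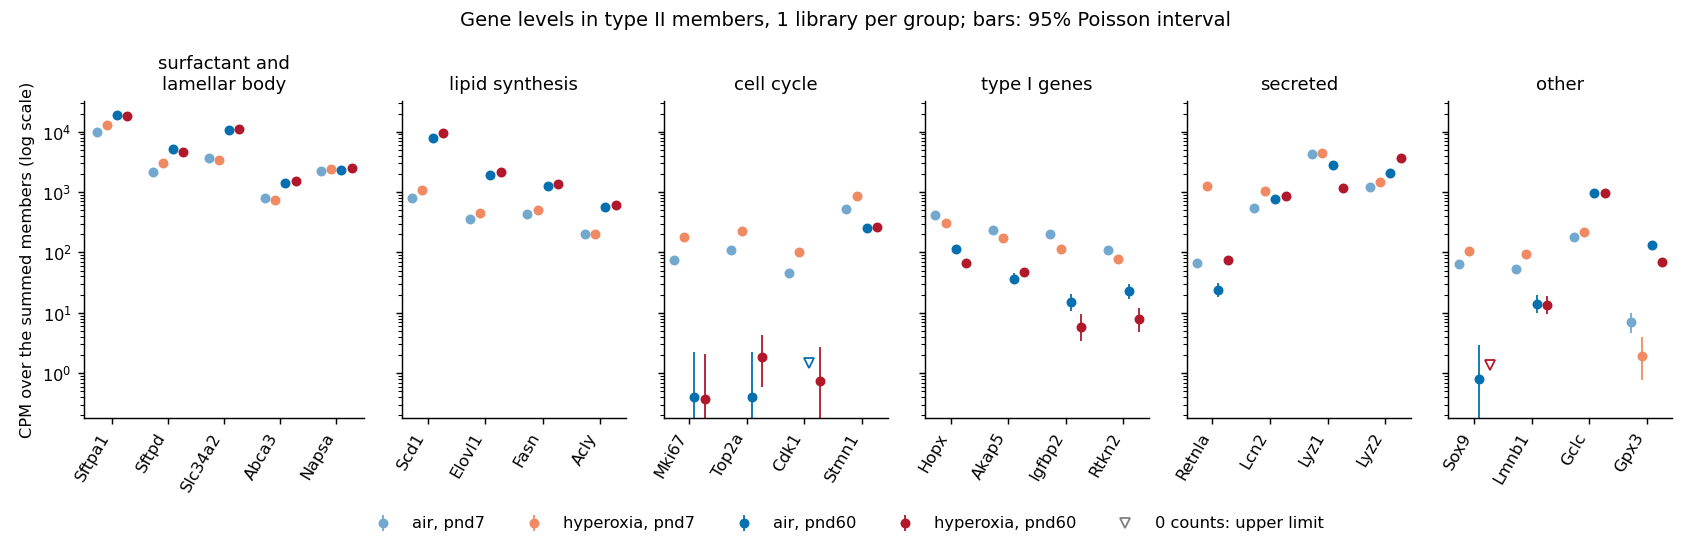
Summed members of each of the 4 libraries are shown as points with 95% exact Poisson intervals on a log axis of CPM, for selected genes. Open triangles mark 0 counts and sit at the upper limit that 0 counts allow, and Retnla in hyperoxia pnd7 and the cell cycle genes at pnd7 stand above the remaining libraries.

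Genes linked to senescence were counted beside all genes, of which 0.894% were 2-fold higher and 1.68% lower at pnd7 and 0.0906% and 0.211% at pnd60, so that counts of 0 in such short lists are near the share of all genes. Of 8 measured genes linked to senescence outside the p53 targets, 0 reached 2-fold at pnd7, and of 4 at pnd60, 0 did. Lmnb1, the lamin of the nuclear envelope that is known to be lost in senescent cells, was at 54.0 CPM in air pnd7, 95.6 in hyperoxia pnd7, 14.3 in air pnd60 and 13.7 in hyperoxia pnd60, and the pnd7 log2 ratio was 0.82 (from 0.58 to 1.08). In deeper pnd7 members it was 131 and 182 CPM where Mki67 or Top2a had a count and 21.3 and 26.2 CPM where neither had. Hmgb2, a chromatin protein, was at 368 CPM in air pnd7, 659.7 in hyperoxia pnd7, 98.1 in air pnd60 and 106 in hyperoxia pnd60. Neither gene reached 2-fold. Cdkn2c, the gene of the inhibitor p18, was at 14.7 and 28.4 CPM at pnd7, 0.95 in all members and 1.12 in deeper ones. Cdkn1a, the gene of the cell cycle inhibitor p21, was at 13.4 CPM in air pnd7, 22.4 in hyperoxia pnd7, 19.5 in air pnd60 and 26.2 in hyperoxia pnd60, and its log2 ratios of 0.74 (from 0.22 to 1.26) at pnd7 and 0.43 (from -0.12 to 0.98) at pnd60 were both under 2-fold. At pnd7 it was 1.05 (from 0.29 to 1.86) in cells with Y-linked counts alone, past 2-fold, and 0.45 (from -0.33 to 1.26) in cells with Xist alone, and the difference between these classes was not tested. The features include a further copy of Cdkn1a that may share its reads, so its level is uncertain. Cdkn2a was too low to compare, with 3, 0, 0 and 0 counts in the 4 libraries. Of 11 measured p53 targets at pnd7 and 12 at pnd60, 0 reached 2-fold in either direction, and the list medians were 0.10 and 0.26 against 0.00 or -0.03 for all genes. In deeper members 1 did, Gdf15, a stress-induced cytokine, at 1.34. Of 6 measured genes of the secretory phenotype at pnd7 only the matrix protease Mmp2 reached 2-fold, at -1.52 (from -2.20 to -0.88), lower in hyperoxia, and among deeper members none did.

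Secreted defence genes had 2 of 15 members past 2-fold at pnd7 (Retnla and Slpi), both higher, beside 0.894% of all genes, and a list median of 0.28, which was 0.08 in deeper members. Slpi, a protease inhibitor of the airway lining, was at 22.9 CPM in air pnd7, 51.6 in hyperoxia pnd7, 34.2 in air pnd60 and 34.8 in hyperoxia pnd60, a pnd7 log2 ratio of 1.17 (from 0.81 to 1.55). Lcn2, which binds bacterial siderophores, was at 536 CPM in air pnd7, 1040.3 in hyperoxia pnd7, 757 in air pnd60 and 845 in hyperoxia pnd60, with 0.96 (from 0.88 to 1.03) at pnd7, just under 2-fold, and 0.79 in deeper members. Its pnd7 ratio was 0.43 (from 0.31 to 0.54) in cells with Xist alone and 1.25 (from 1.14 to 1.36) in cells with Y-linked counts alone. Lrg1, a secreted glycoprotein of the acute phase, was at 31.1 CPM in air pnd7, 69.9 in hyperoxia pnd7, 563 in air pnd60 and 644 in hyperoxia pnd60, 1.17 (from 0.85 to 1.49) at pnd7. Ly6i, second to Retnla by ratio, was at 3.98 and 22.9 CPM at pnd7, a log2 ratio of 2.53 (from 1.74 to 3.40). Of 3 measured interferon-stimulated genes 1 was 2-fold higher, beside the same 0.894% of all genes, Ifi27l2a, at 1.10 (from 0.66 to 1.56). The rest of the 10 highest ratios at pnd7 were Gm42048, the linker histone gene H1f10, the histone gene Hist1h2an and the mitotic genes Cep55, Aurkb, Sgo2a, Melk and Cenpq, between 1.47 and 1.72, with Gm42048 at 2.06. Aurkb, the kinase of the chromosomal passenger complex, was at 13.7 CPM in air and 39.6 CPM in hyperoxia.

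Genes of surfactant and of lipid synthesis lay within 2-fold between exposures, as most genes did. Of 2 measured surfactant proteins, 9 genes of surfactant processing and 19 of lipid and cholesterol synthesis, 0 reached 2-fold at either age in either direction, beside 0.894% of all genes higher and 1.68% lower at pnd7 and 0.0906% and 0.211% at pnd60, so that a count of 0 is near that of all genes. Sftpa1 had a pnd7 log2 ratio of 0.42 (from 0.40 to 0.44) and Sftpd, of surfactant protein D, 0.46 (from 0.42 to 0.50). In the deeper members these were 0.26 and 0.32. Sftpb has a feature named as a further copy, which makes its counts uncertain, and is left out. The transporter genes Slc34a2 and Abca3 helped to choose the members, so their levels are given as description alone. Slc34a2, the phosphate transporter, was at 3610.5 CPM in air pnd7, 3378 in hyperoxia pnd7, 10820.5 in air pnd60 and 11282 in hyperoxia pnd60. Abca3, the lipid pump of lamellar bodies, was at 797 CPM in air pnd7, 735 in hyperoxia pnd7, 1439 in air pnd60 and 1538 in hyperoxia pnd60. The antioxidant list had 0 of 16 genes past 2-fold at pnd7 and 0 of 17 at pnd60, the integrated stress and unfolded protein list 0 of 10 and 0 of 8, the immediate early and heat shock list 0 of 12 and 0 of 12, and the ion and fluid transport list 0 of 10 and 0 of 8. Nkx2-1, the transcription factor of lung epithelium, was at 607 CPM in air pnd7, 642 in hyperoxia pnd7, 967 in air pnd60 and 1013 in hyperoxia pnd60, and Sox9, a factor of the embryonic distal lung, at 64.4 CPM in air pnd7 and 106 CPM in hyperoxia pnd7, a log2 ratio of 0.72 (from 0.49 to 0.95).

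The genes lower in hyperoxia at pnd7 were led by markers of other cells. Scgb1a1, the secretoglobin of club cells, was at 1631 CPM in air pnd7, 19.1 in hyperoxia pnd7, 1370.3 in air pnd60 and 478 in hyperoxia pnd60, a pnd7 log2 ratio of -6.42 (from -6.78 to -6.08). In deeper members it was 21.9 and 18.0 CPM, a ratio of -0.28, so that the difference was within 2-fold there. The mesenchymal list had 6 of 6 measured genes 2-fold or more lower, beside 1.68% of all genes, with a median of -2.08 that was -2.20 in deeper members. Acta2, smooth muscle actin, was at 232 CPM in deeper air pnd7 members and 16.0 CPM in deeper hyperoxia pnd7 members, and Eln, elastin, at 589 and 17.1 CPM. A few members held much of both, as 1 air pnd7 member had 462 of 960 counts of Acta2 and 1 had 872 of 2663 counts of Eln, and without the highest member of each library the pnd7 log2 ratios of all members were -2.12 and -3.35. Hbb-bs was at 17339 CPM in air pnd7, 7067 in hyperoxia pnd7, 617 in air pnd60 and 13.7 in hyperoxia pnd60, with a pnd7 log2 ratio of -1.29 that turned to 0.53 in deeper members. Ccn2, a matricellular growth factor, was lower in hyperoxia at both ages, at 87.8 CPM in air pnd7, 36.6 in hyperoxia pnd7, 30.1 in air pnd60 and 9.98 in hyperoxia pnd60. Of the 10 lowest ratios, Aspn, Eln, Actg2, Loxl1 and Igfbp5 are known from mesenchymal or smooth muscle cells. As the mean of CPM per cell, the mesenchymal median was -0.70. The part of mesenchymal RNA in these ratios was not tested.

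**Figure D3:**
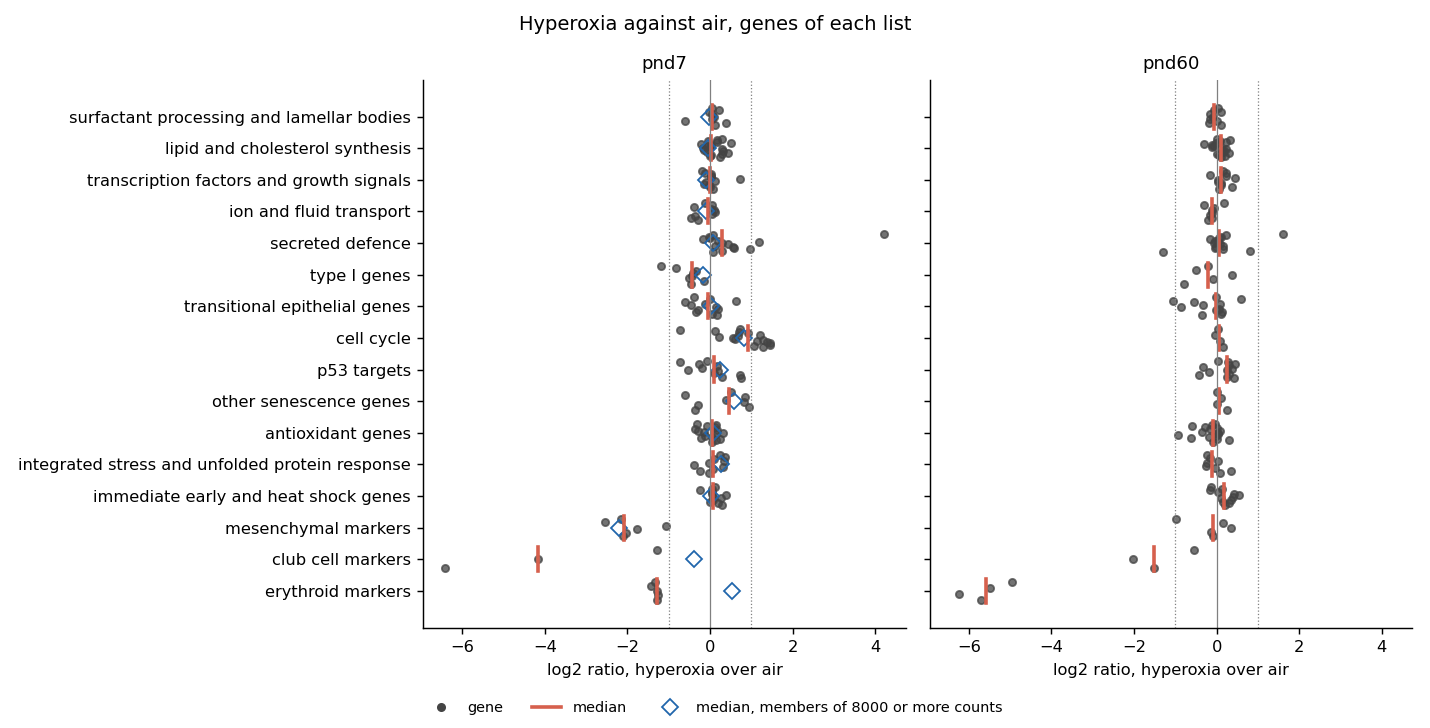
Log2 ratios of hyperoxia to air at pnd7 (left) and pnd60 (right) are shown by gene list, each dark point being 1 gene with 100 or more counts and each red line the list median. Blue diamonds give the pnd7 median among members of 8000 or more counts and dotted lines mark 2-fold, and the cell cycle list lies mostly to the right of 0 at pnd7 while its 4 measured genes lie near 0 at pnd60.

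At pnd60, members of the hyperoxia and air libraries were closer still. Of 6626 genes, 97.7% lay within 1.5-fold, 6 were 2-fold or more higher in hyperoxia (0.0906%) and 14 lower (0.211%), with a median log2 ratio of 0.00. The 6 were Retnla, the splicing factor Srsf3, Mfsd2a, the ferritin light chain Ftl1, 1700094D03Rik and 1110018N20Rik. Mfsd2a, a transporter of lysophospholipids, had 1 and 3 counts at pnd7 and 14.7 and 32.5 CPM at pnd60, a log2 ratio of 1.15 (from 0.58 to 1.75). Ftl1 was at 416 CPM in air pnd7, 387 in hyperoxia pnd7, 262 in air pnd60 and 556 in hyperoxia pnd60, 1.09 (from 0.95 to 1.22) at pnd60, but it had 1.19 in the other filtered cells of the same libraries, and Srsf3 had 1.46 (from 0.88 to 2.07) in members and 1.67 in the other cells. Among the 14 lower genes, the hemoglobin gene Hbb-bs was -5.50. Scgb1a1 was -1.52, which rests on the 1 air member given above, since the median member had 186 CPM in air and 287 in hyperoxia, and 68.4% and 79.0% of members had a count. Areg, the epidermal growth factor receptor ligand amphiregulin, was at 41.0 CPM in air pnd7, 63.9 in hyperoxia pnd7, 87.6 in air pnd60 and 42.1 in hyperoxia pnd60, with 0.64 (from 0.34 to 0.93) at pnd7 and -1.05 (from -1.40 to -0.72) at pnd60. Its direction thus differed between ages, and that difference was not tested. Ogn and Prelp, proteoglycans of connective tissue, were -1.35 and -1.32. Below 2-fold, Arntl, the clock activator BMAL1, was at 18.3 and 35.5 CPM, a log2 ratio of 0.95 (from 0.43 to 1.50).

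The 2 lysozyme genes differed in opposite directions at pnd60. The mouse genes Lyz1 and Lyz2 lie beside each other on chromosome 10 (GENCODE M21 on GRCm38, chr10:117287797-117292868 and chr10:117277331-117282321, both on the minus strand) and encode the lysozymes P and M. Their transcripts are 1263 and 1316 bases long and 96.0% identical over 1262 aligned bases, and 16.1% of the 50-base windows of Lyz1 occur in Lyz2, so some reads cannot be told apart. Lyz1 was at 4249 CPM in air pnd7, 4457 in hyperoxia pnd7, 2858 in air pnd60 and 1172 in hyperoxia pnd60, and Lyz2 at 1228 CPM in air pnd7, 1492 in hyperoxia pnd7, 2044 in air pnd60 and 3608 in hyperoxia pnd60. Lyz1 was lowest and Lyz2 highest in hyperoxia pnd60. At pnd60 the log2 ratio of hyperoxia to air was -1.29 (from -1.35 to -1.23) for Lyz1 and 0.82 (from 0.77 to 0.87) for Lyz2, and at pnd7 0.07 and 0.28. The other filtered cells of the pnd60 libraries moved the same ways, at -0.68 and 0.75. The sum of both genes was 5476, 5949, 4902 and 4779 CPM in the same order, within 1.5-fold across libraries.

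Most members with enough counts of the pair to be classed had mainly 1 of the 2 genes. Among members with 10 or more counts of the pair, Lyz1 made up over 50% of them in 133 of 222 members in air pnd7 (59.9%), 78 of 171 in hyperoxia pnd7 (45.6%), 48 of 254 in air pnd60 (18.9%) and 33 of 355 in hyperoxia pnd60 (9.30%). Shares between 20 and 80% were found in 41, 35, 10 and 23 members. In deeper members those over 50% were 49.0% and 42.2% at pnd7, closer than among all members. The fraction with mainly Lyz1 was thus lower at pnd60 than at pnd7, and within pnd60 lower in hyperoxia. The lower Lyz1 of hyperoxia pnd60 was -0.38 (from -0.50 to -0.26) in cells with Xist alone and -1.53 (from -1.62 to -1.44) in cells with Y-linked counts alone, while the Lyz2 ratios were 0.80 (from 0.72 to 0.89) and 0.80 (from 0.73 to 0.88). Members of either kind carried type II genes that the rule did not use: in hyperoxia pnd7, Sftpa1 was at 13380.0 CPM where Lyz1 was over 50% and 14202 CPM where it was not, and in hyperoxia pnd60 at 17741 and 18642 CPM. Sftpd was at 2930.3 and 3285 CPM in hyperoxia pnd7. C1qb, a macrophage gene, was at 51.0 and 0.712 CPM in these classes in air pnd7 and had 0 counts in both in hyperoxia pnd7.

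**Figure D4:**
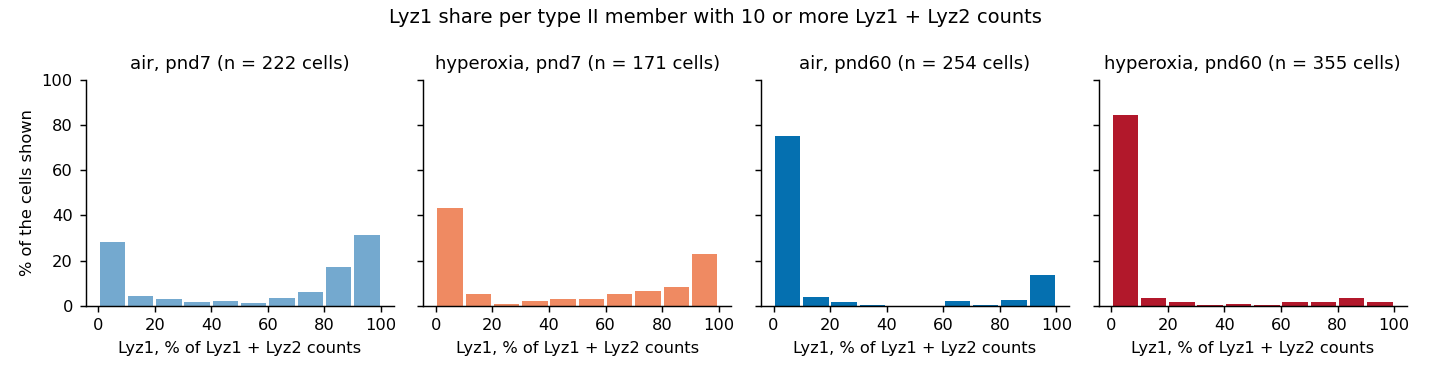
The horizontal axis is the Lyz1 share of a member's Lyz1 and Lyz2 counts in percent, for members with 10 or more counts of the pair, and the vertical axis the percent of those members in each 10% step, in 1 panel per library. Most members lie near either end of the axis, and the end near 100% holds fewer members at pnd60, with 9.30% over 50% in hyperoxia.

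More genes passed 2-fold between ages than between exposures. From pnd7 to pnd60 in air, 630 of 7346 genes were 2-fold or more higher (8.58%) and 468 lower (6.37%), with a median log2 ratio of 0.16. In hyperoxia, 881 of 7251 were higher (12.2%) and 535 lower (7.38%), with a median of 0.22. Scaling by TMM factors moved these medians by -0.15 and -0.19 and turned the split to 425 higher and 635 lower in air, and 563 higher and 771 lower in hyperoxia, so neither direction can be called the more frequent. Of 7010 genes measured in both, 481 were higher and 281 lower in both exposures. The comparisons of age and exposure share libraries, and age in each exposure rests on 1 library per age.

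Genes of lipid synthesis were higher at pnd60 by the list median. Of 19 measured genes, 12 were 2-fold or more higher in air and 11 in hyperoxia, beside 8.58% and 12.2% of all genes, 0 were lower, 11 were higher in either exposure by TMM scaling, and the medians were 1.41 and 1.20 against 0.16 and 0.22. Scd1, the desaturase that makes monounsaturated fatty acids, was at 796 CPM in air pnd7, 1076 in hyperoxia pnd7, 7766 in air pnd60 and 9639 in hyperoxia pnd60. Both pnd60 libraries lay far above both pnd7 libraries, with log2 ratios of 3.29 (from 3.23 to 3.34) in air and 3.16 (from 3.11 to 3.21) in hyperoxia. Scd1 also occurred in lymphocytes at pnd60, where 31.4% in air and 34.5% in hyperoxia had a count after thinning to 2000 counts, against 98.9% and 99.3% of members. Elovl1, an elongase of very long fatty acids, was at 357 CPM in air pnd7, 446 in hyperoxia pnd7, 1911 in air pnd60 and 2119 in hyperoxia pnd60. Fasn, the fatty acid synthase, was at 430.0 CPM in air pnd7, 510.3 in hyperoxia pnd7, 1240.4 in air pnd60 and 1343 in hyperoxia pnd60, and Acly, which supplies its acetyl-CoA, at 199 CPM in air pnd7, 202 in hyperoxia pnd7, 572 in air pnd60 and 599.6 in hyperoxia pnd60. All of these were higher at pnd60 in either exposure, and none differed by 2-fold between exposures.

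Of 2 measured surfactant proteins, 1 was 2-fold or more higher with age in air and 0 in hyperoxia, beside 8.58% and 12.2% of all genes. Their medians were 1.08 and 0.53, below those of the lipid list. Sftpd was 1.23 in air and 0.62 in hyperoxia, Sftpa1 0.92 and 0.44, and Sftpc, on which the members were chosen, -0.25 and -0.45. Slc34a2, also used by the rule, had log2 ratios of 1.58 (from 1.55 to 1.61) and 1.74 (from 1.71 to 1.77), and Lrrk2, a kinase of lysosome-related organelles, 1.79 and 1.50. Ctsh, a cathepsin that trims surfactant protein precursors, was lower, at 1051 CPM in air pnd7, 1383 in hyperoxia pnd7, 713 in air pnd60 and 631 in hyperoxia pnd60. Antioxidant genes split, with 5 of 17 higher in each exposure (Hmox1, Gclc, Gpx3, Sod1 and Cat) and 1 lower in air and 2 in hyperoxia, the metallothioneins Mt1 and Mt2, beside 8.58% and 12.2% of all genes higher and 6.37% and 7.38% lower. Gclc, the rate-limiting enzyme of glutathione synthesis, was at 183 CPM in air pnd7, 216 in hyperoxia pnd7, 952 in air pnd60 and 951 in hyperoxia pnd60. Gpx3, the secreted glutathione peroxidase, was at 6.96 CPM in air pnd7, 1.91 in hyperoxia pnd7, 134 in air pnd60 and 70.6 in hyperoxia pnd60, with hyperoxia below air at both ages and -0.92 (from -1.19 to -0.66) at pnd60. Catalase, Cat, was at 459 CPM in air pnd7, 355 in hyperoxia pnd7, 1054 in air pnd60 and 1064 in hyperoxia pnd60. Among ion transport genes, Scnn1a, the alpha subunit of the epithelial sodium channel, was higher at pnd60 (60.2, 49.4, 188 and 162 CPM in the order above), and Scnn1g, its gamma subunit, was lower (50.7, 39.3, 9.77 and 8.50 CPM).

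Several of the highest age ratios lay in genes with few counts at pnd7. Prmt8, an arginine methyltransferase known from brain, had 1 count in each pnd7 library and 88.4 and 86.5 CPM at pnd60. Slc10a6, a carrier of sulfated steroids, had 4 and 4 counts at pnd7 and 51.7 and 49.2 CPM at pnd60. Cyp2b10, a drug-metabolizing cytochrome, had 11 and 0 counts at pnd7 and stood at 72.5 and 51.0 CPM at pnd60, in hyperoxia a log2 ratio of at least 5.96 against the floor of 3 counts. Inmt, which methylates indoleamines and is known from lung fibroblasts, was at 1.24 CPM in air pnd7, 4.37 in hyperoxia pnd7, 184 in air pnd60 and 93.5 in hyperoxia pnd60, and the other filtered cells had 1097 and 1099 CPM of it at pnd60. Nr1d1, the clock repressor REV-ERBα, was at 18.9 CPM in air pnd7, 16.9 in hyperoxia pnd7, 315 in air pnd60 and 342 in hyperoxia pnd60, and its age ratio was 4.43 and 4.60 on the log2 scale in the other filtered cells of the air and hyperoxia libraries too. Cbr2, a lung carbonyl reductase, was at 1799 CPM in air pnd7, 1599.7 in hyperoxia pnd7, 7572 in air pnd60 and 6776 in hyperoxia pnd60, and Aox3, an aldehyde oxidase, at 27.6 CPM in air pnd7, 38.2 in hyperoxia pnd7, 408 in air pnd60 and 378 in hyperoxia pnd60.

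Genes of the cell cycle were lower at pnd60, 11 of 14 measured in air and 15 of 17 in hyperoxia, beside 6.37% and 7.38% of all genes. After thinning to 2000 counts the medians were -0.097 in air and 0.27 in hyperoxia, over fewer genes with 100 counts. Ccnd1, a D-type cyclin, went the other way in both exposures, at 1.05 and 1.01, which TMM scaling brought under 2-fold, and Ccnd2 did in hyperoxia, at 1.22. Sox9 was at 64.4, 106, 0.814 and 0 CPM, from 2 and 0 counts at pnd60. It was the only one of 12 transcription factors and growth signals past 2-fold, while Nkx2-1, Foxa2 and Cebpa were 0.67, 0.45 and 0.37 in air. Of 5 measured imprinted growth genes, Cdkn1c, Grb10 and Peg3 were lower in both exposures, and 1 was higher in hyperoxia, Igf2r, at 1.06, which TMM scaling brought under 2-fold and whose level is uncertain because the features include a further copy of it. Of 7 measured senescence genes outside the p53 targets, 4 were lower in air and 5 in hyperoxia, among them Lmnb1 (-1.92 and -2.80) and Hmgb2 (-1.91 and -2.64), and 0 were higher. Of 7 measured mesenchymal markers, 5 were lower in air and 3 in hyperoxia, with Acta2 at -7.61 in air, while Inmt (7.21 and 4.42) and Mgp, matrix Gla protein (1.42 and 2.63), were higher in each, and 5 of 5 erythroid genes were lower in each. The mesenchymal medians were -2.73 in air and -0.63 in hyperoxia, and in deeper members -1.16 and 0.84. In deeper members 4 of 7 measured mesenchymal markers were lower in air and 0 of 5 in hyperoxia, with 2 higher in each.

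Genes of type I cells were low at pnd60 within type II members, with 5 of 8 measured genes 2-fold or more lower in each exposure and 0 higher, beside 6.37% and 7.38% of all genes lower, and medians of -1.90 in air and -2.04 in hyperoxia. In the deeper members the medians were -1.50 and -2.14. The hyperoxia median was 0.0069 after thinning to 2000 counts, over fewer genes with 100 counts. The air median was -3.22 in cells with Xist alone and -0.55 in cells with Y-linked counts alone, classes that differed in depth in air pnd7. Hopx, a homeodomain factor of type I cells, was at 421 CPM in air pnd7, 306 in hyperoxia pnd7, 113 in air pnd60 and 65.8 in hyperoxia pnd60. Igfbp2, an insulin-like growth factor binding protein that marks mature type I cells, was at 201 CPM in air pnd7, 113 in hyperoxia pnd7, 15.1 in air pnd60 and 5.92 in hyperoxia pnd60, and Akap5, an anchor of protein kinase A, at 234 CPM in air pnd7, 173 in hyperoxia pnd7, 36.7 in air pnd60 and 47.3 in hyperoxia pnd60. The shallow air pnd7 members had 687 CPM of Hopx and 321 CPM of Igfbp2, and the deeper ones 352 and 170.4. Their counts were uneven among the members. Hopx had a count in 290 of 507 members and Igfbp2 in 147 in air pnd7, but all 415 counts of Igfbp2 in hyperoxia pnd7 lay in 24 of 248 members. Of the 181 deeper air pnd7 members, the 19 highest in Igfbp2 held 98.2% of its counts. The 19 highest in Hopx, taken separately, held 87.8% of its counts. Aqp5, the water channel, went the other way within the list, at 292 CPM in air pnd7, 266 in hyperoxia pnd7, 509.9 in air pnd60 and 478 in hyperoxia pnd60. Spock2 was the list's only gene 2-fold lower in hyperoxia at pnd7, at -1.19 (from -1.48 to -0.91), and -0.72 in deeper members. Of the transitional epithelial genes, 0 of 12 reached 2-fold at pnd7, near the 0.894% of all genes higher and 1.68% lower there, and Krt8, a keratin of that state, was at 225 CPM in air pnd7, 250.4 in hyperoxia pnd7, 321 in air pnd60 and 252 in hyperoxia pnd60.

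**Figure D5:**
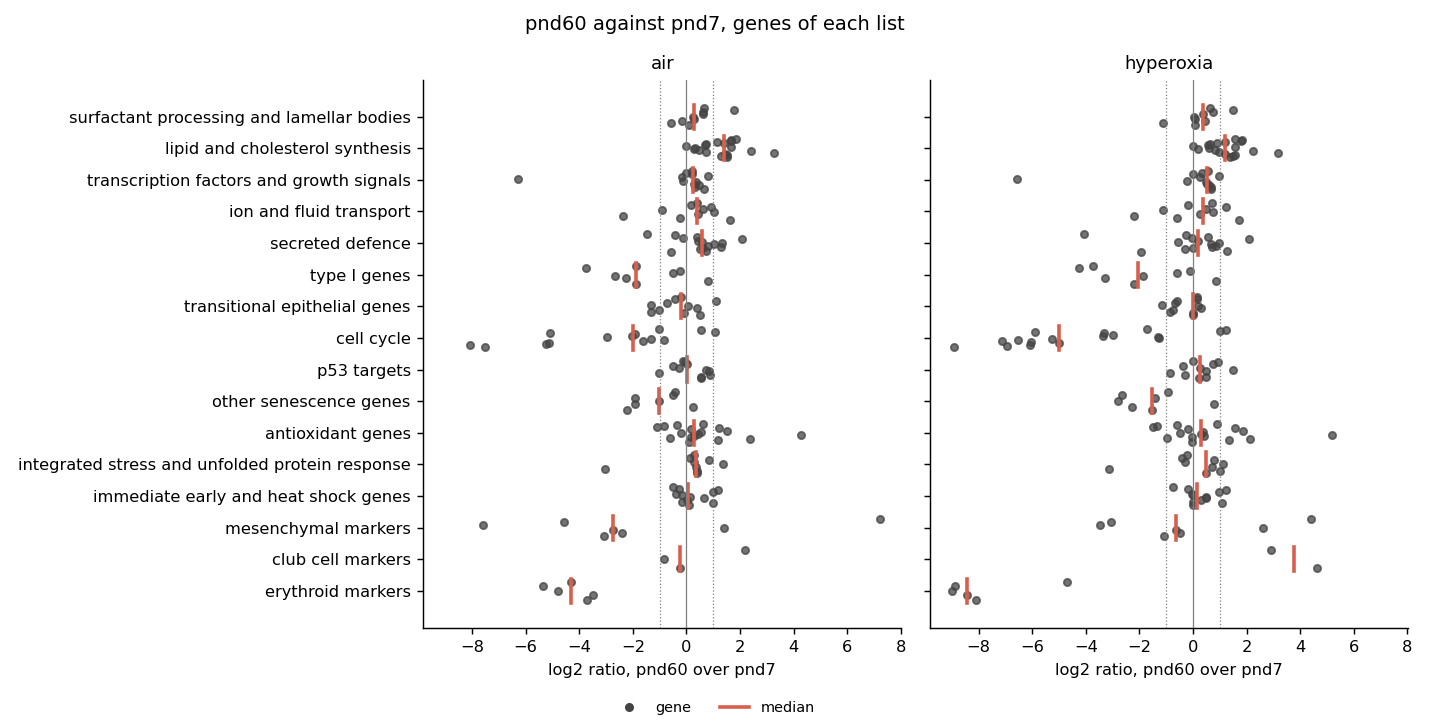
Log2 ratios of pnd60 to pnd7 in air (left) and hyperoxia (right) are shown by gene list, each dark point being 1 gene with 100 or more counts, each red line the list median and dotted lines 2-fold. Most lipid synthesis genes lie to the right of 0 in both exposures, and most cell cycle and type I genes lie to the left.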

How the data were processed

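Single lung cells were captured on the Chromium platform with 3′ chemistry, and the authors aligned and counted reads with Cell Ranger and filtered cells in Seurat. The submitters' processing notes name Seurat 3.2.1 and mm10, and the Cell Ranger version is not given in the sources used here. The deposited values are raw counts of unique molecular identifiers per feature and barcode, over 42454 features. Of these, 2346 are named as further copies of a gene, which makes 1740 genes uncertain, and only 2 features are mitochondrial.

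Members' counts were summed per library and scaled to a total of 1000000 (CPM), with exact Poisson intervals. Ratios have binomial intervals. Genes with 100 or more counts in both libraries together were compared, and 2-fold was the size used. A gene at 0 was set to a floor of 3 counts. With 1 library per group no test was made. Intervals cover counting error only. Named genes were the 10 highest and the 10 lowest ratios of each comparison and the members of 30 gene lists of 322 genes. Members and lists were chosen with earlier results of these data known. Lymphocytes for comparison had 2 or more T or B cell genes. Alternatives changed the rule, depth, scaling and count limit. The ratios were checked against simulated libraries with known answers. Python 3.11.15 with scipy 1.17.1, numpy 2.4.6, scanpy 1.11.5 for Scrublet and pandas 2.3.3, and R 4.3.3 with edgeR 4.0.16 for TMM factors alone, were used. Promoter windows are from RefSeq.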

Additional observations from a re-analysis of the deposited data

Results flagged for a closer look

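Igfbp4, which encodes a binding protein of insulin-like growth factors, was 2-fold or more lower with age in air (log2 ratio -1.85) and 2-fold or more higher in hyperoxia (1.24). Its levels were 54.5 CPM in air pnd7, 11.7 in hyperoxia pnd7, 15.1 in air pnd60 and 27.7 in hyperoxia pnd60, and 10.6 and 6.50 CPM in the deeper pnd7 members. Lbh, a transcriptional regulator, went the same ways, at -1.03 in air and 1.13 in hyperoxia, with 49.7 CPM in air pnd7, 13.4 in hyperoxia pnd7, 24.4 in air pnd60 and 29.2 in hyperoxia pnd60 and 14.4 and 7.39 CPM in the deeper pnd7 members. Both were noted because the 2 exposures moved in opposite directions. The difference was not tested, and it did not hold throughout. Without the shallow pnd7 members neither gene was lower with age in air, and in hyperoxia Igfbp4 turned to -1.63 in cells with Xist alone, -0.079 after thinning and -0.94 as the mean per cell, and Lbh to -1.07 as the mean per cell.

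The library of sorted hyperoxia pnd7 cells, used in no comparison, held 12 cells that met the rule, of 493 filtered cells (2.43%, from 1.26% to 4.21%, exact Clopper-Pearson interval). Of these, 10 had all 6 of the other genes, and the median was 18157.5 counts. Their summed Sftpc was 191175 CPM. Sftpa1, which the rule did not use, was at 8234 CPM against 13123 CPM in the unsorted hyperoxia pnd7 members. The rule used Slc34a2 and Abca3, so their levels are given as description alone, at 728 against 3378 CPM and 239 against 735 CPM. Cdkn1a stood at 372 CPM against 22.4 CPM in the unsorted hyperoxia pnd7 members, and Retnla at 105 against 1250.0 CPM. The macrophage gene C1qb stood at 222 CPM against 0 counts, and Lyz2 at 2943 CPM. The part of macrophage RNA in the Cdkn1a value was not tested.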

How the results depend on the processing

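No paired analysis was possible because each group has 1 library. The precision is limited by the 1 library per group, by the shallow air pnd7 members and by free RNA, whose part was not tested. The alternatives of deeper members, all 6 other genes, Xist alone, Y-linked counts alone, totals without hemoglobin genes and the highest member left out were chosen after seeing the data. Across the alternatives, 116 counts and shares of members were within 1.5 times or within their interval and 68 were not. Among single log2 ratios 2499 moved by less than their interval, 966 moved further and 16 of 2-fold or more changed sign. Among list medians these numbers were 1121, 177 and 5. Sign changes of values under 2-fold are not among the 16 and the 5. The cause of the changes was not tested. The log2 ratio of Retnla at pnd7 ranged from 3.72 to 5.14 over 18 alternatives and the cell cycle median at pnd7 from 0.60 to 1.14. Retnla at pnd60 ranged from 0.29 to 2.31, Lyz1 from -1.63 to -0.38, Lyz2 from 0.79 to 1.07, Areg from -1.67 to -0.77 and Ccn2 from -2.16 to -0.85. The lipid median with age ranged from 1.14 to 1.60 in air and from 1.02 to 1.26 in hyperoxia.

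The share of members in air pnd7 was 25.3% at an Sftpc limit of 1%, 16.0% at 5% and 16.4% with 4 of the 6 other genes. Requiring 0 counts also of Ptprc, Pecam1, Col1a2 and Scgb1a1 gave 8.15%, 11.5%, 2.16% and 1.62% in air pnd7, hyperoxia pnd7, air pnd60 and hyperoxia pnd60, deeper members alone 7.84%, 11.7%, 7.00% and 6.98%, and all 6 other genes 10.1%, 14.5%, 7.73% and 8.37%. Among cells with 2000 or more counts the pnd60 shares were 14.7% in either exposure.

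Genes 2-fold or more lower in hyperoxia at pnd7 numbered 62 at an Sftpc limit of 5%, 86 with 4 of 6 genes, 12 with the further absent genes, 34 in deeper members, 38 with all 6 genes, 55 in cells with Xist alone, 45 in cells with Y-linked counts alone, 31 after thinning, 35 at a limit of 300 counts, 516 at 30 counts and 287 as the mean of CPM per cell. Genes higher at pnd7 numbered 24 with Y-linked counts alone, 8 after thinning, 20 at 300 counts, 162 at 30 counts and 137 as the mean per cell. At pnd60 the genes higher in hyperoxia numbered 19 with no Sftpc limit and 3 or more of the 6 other genes, which changed both limits together. They numbered 3 with the further absent genes, 1 after thinning, 1 at 300 counts, 60 at 30 counts and 10 as the mean per cell. Genes lower in hyperoxia numbered 4 with the absent genes, 7 without Scrublet doublets, 7 with Xist alone, 4 after thinning, 6 at 300 counts, 90 at 30 counts and 8 as the mean per cell.

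With age in air, 337 genes were higher with the absent genes, 416 with Xist alone, 327 with Y-linked counts alone, 297 after thinning, 307 at 300 counts and 1016 at 30 counts, and 249, 209 (Y-linked), 158, 196 and 1108 were lower. In hyperoxia, 411 were higher with the absent genes, 569 with Xist, 456 with Y-linked counts, 334 after thinning, 563 by TMM factors, 389 at 300 counts and 1451 at 30 counts, and 293 (Y-linked), 149, 246 and 1020 were lower.

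Some ratios and medians under 2-fold changed sign. With age in deeper members, the mesenchymal median in hyperoxia turned from -0.63 to 0.84. The club cell median in air turned from -0.25 to 2.95 there. Those of 2-fold or more changed sign as follows. At pnd7, Hba-a1 was 0.052 with the absent genes, 0.62 in deeper members and 0.14 with all 6 genes, and Hbb-bs and the erythroid median were 0.53 in deeper members and 0.077 with all 6 genes. At pnd60, the club cell median was 0.67 and Scgb1a1 1.91 at an Sftpc limit of 1%, and Plxdc2 was 0.035 without Scrublet doublets and 1.36 with Xist alone. With age in air, Igfbp4 was 0.61 in deeper members and Lbh 0.69 there and 0.32 with all 6 genes. With age in hyperoxia, Igfbp4 was -1.63 with Xist alone, -0.079 after thinning and -0.94 as the mean per cell, Lbh was -1.07 as the mean per cell, Ccn2 was 0.18 with Y-linked counts alone, and after thinning the type I median was 0.0069 and the cell cycle median 0.27, over fewer genes with 100 counts.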
